A study of Mus musculus with 30 samples.

Results

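The most contrasting states of a floxed mouse cohort were compared by RNA sequencing of whole hearts: 4 hearts of mice with a cardiac-specific Cpt1a knockout after transverse aortic constriction (KO_TAC) and 4 hearts of Cpt1a-floxed control mice after sham surgery (FF_sham). These 8 libraries were chosen by genotype and treatment label from 30 in the series. Hearts were taken 8 weeks after surgery. Transverse aortic constriction narrows the aorta with a clip and raises the pressure against which the left ventricle pumps. Clips of 0.016 or 0.018 inch were used, and the labels do not say which mouse received which. The promoter that drives the Cre recombinase, whether the floxed controls carry Cre, the strain background, the age and the sex are not given in the sources used here, and the design text of the series speaks of a knockdown where the genotype label says knockout. The groups differ in genotype and in surgery at once, so a difference between them cannot be assigned to either one. The levels in the remaining groups of the cohort, sham-operated knockouts (KO_sham, 4 hearts) and overloaded floxed controls (FF_TAC, 4 hearts), are therefore given beside the main results. The sample titles of the KO_TAC hearts name both TAC and sham, and their genotype and treatment labels were used.

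CPT1a is a carnitine palmitoyltransferase of the outer mitochondrial membrane. It joins long-chain fatty acids to carnitine, the step that admits them to beta-oxidation, and malonyl-CoA inhibits it. The adult heart draws most of its energy from fatty acids and uses mainly the muscle isoform, CPT1b, while CPT1a is the form of the fetal heart and the liver. Under a lasting pressure load the heart is known to lower genes of fatty acid oxidation, to express fetal contractile and natriuretic peptide genes again, and to lay down collagen-rich matrix.

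Each library held 16849335 to 17363788 counts in FF_sham and 14839758 to 18356912 in KO_TAC. Levels are given as CPM, counts relative to the library total after TMM scaling, and always in the order of replicates 1 to 4. Differences are log2 fold changes, KO_TAC against FF_sham, with the standard error (SE) of the fit. A gene was called where the adjusted p was under 0.05. Of 15596 genes tested, 5289 (33.9%) were called, 2899 (18.6%) higher and 2390 (15.3%) lower in KO_TAC. The 4 and 4 hearts did not overlap for 4015 of the called genes (25.7% of those tested). The median log2 fold change over all genes tested was 0.03. Because the strand setting of the counting is not given, the counts of genes that overlap an opposite-strand gene are uncertain to that extent: among those described, Acadvl, Acsl1, Adamts4, Alas2, Arntl, Bckdha, Bdh1, Bhlhe40, Col4a1, Crat, Crot, Dbp, Fabp3, Fosl1, Gm38102, Hadha, Hspa1a, Il1a, Il1b, Irf1, Kcnq1, Lox, Ltbp2, Mt2, mt-Co1, mt-Nd5, Ndufs1, Oxct1, Pfkfb1, Pfkp, Tgfb2 and Thbs1, besides those named as such beside their values. Col3a1 and Crot also overlap a gene on the same strand.

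Some libraries stood apart in ways that touch these results. Summed haemoglobin transcripts were 384 to 572 CPM without TMM scaling in the 4 FF_sham hearts and 3.89 to 51.1 CPM in the 4 KO_TAC hearts. Of the other 8 hearts, 3 were also under 100 CPM (KO_sham 2, FF_TAC 2 and FF_TAC 3). These libraries had high immediate early genes as well: the mean log2 CPM of that list was 6.32 to 7.69 in KO_TAC, 7.10 to 7.48 in the 3 others and 3.06 to 3.55 in FF_sham. Within the 8 hearts compared, this split and the groups cannot be told apart. A fit over the 16 hearts of the cohort with a term for the 7 haemoglobin-low libraries takes the term's size from KO_sham and FF_TAC alone and assumes that it adds equally in every group. With that term 322 genes (2.06%) were called, 167 (1.07%) higher and 155 (0.994%) lower, and 315 of them were also called without it in the same direction. Of the 159 genes named, 83 lost their call with the term in the same direction, and a further 11 lost it and changed sign. The 159 include genes that were not called without the term either, so fewer than the remainder are calls that held. Its counts are given for each list of biology, and its value for genes that were called with it or that it moved most. "With the haemoglobin term" refers to this fit. KO_TAC 1 and FF_sham 2 also held atrial transcripts: the atrial light chain gene Myl7 stood at 3147 CPM in KO_TAC 1 and at most 0.751 CPM in the other 3 KO_TAC hearts, and at 1106 CPM in FF_sham 2. Heart muscle was evident in all 8: 7 cardiomyocyte markers summed to 50732 to 69250 CPM in KO_TAC and 57485 to 65566 CPM in FF_sham, and 3 of them fell (Myh6, Ryr2 and Pln). Of other marker lists, 1 of 7 atrial genes rose (Nppa, 14.3%). Of 8 smooth muscle and pericyte genes, 1 rose (12.5%) and 2 fell (Kcnj8 and Abcc9, 25.0%). The 1 that rose was Des, the muscle intermediate filament desmin, which is not confined to these cells. Over all genes 18.6% were called higher and 15.3% lower, so these few calls are not a result about those cell types. All 5 haemoglobin-list genes fell, and none of 4 lymphocyte, 5 adipocyte, 6 mesothelial or 5 Schwann and neuronal genes passed the test. The adipocyte sum was 0.556 to 21.4 CPM in KO_TAC and 0.733 to 287 CPM in FF_sham. In these bulk samples, fewer cells of a type and less RNA per cell cannot be told apart.

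Cpt1a (ENSMUSG00000024900, GRCm38 chromosome 19, 3322334 to 3385733, plus strand) was lower in every KO_TAC heart. It stood at 37.8, 43.9, 52.7 and 45.9 CPM in FF_sham and at 19.6, 11.9, 14.1 and 11.1 CPM in KO_TAC. The groups did not overlap, and the transcript was reduced but not absent in the knockouts. It fell by 1.66 ± 0.33 on the log2 scale (SE; adjusted p = 0.00223) and was -1.56 ± 0.47 with the haemoglobin term (adjusted p = 0.0907). The whole-gene count also covers cells outside the cardiac deletion and any exons that the deletion leaves. In KO_sham it stood at 22.5, 46.3, 20.3 and 23.7 CPM, so the library labelled KO_sham 2 was within the FF_sham range. In FF_TAC it stood at 48.9, 20.3, 16.2 and 34.0 CPM, with the lowest values in the haemoglobin-low hearts FF_TAC 2 and 3. The fitted log2 differences against FF_sham were -0.68 ± 0.32 in KO_sham (adjusted p = 0.980) and -0.59 ± 0.32 in FF_TAC (adjusted p = 0.497). These comparisons share the FF_sham hearts with the main one.

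Genes that bring fatty acids into the mitochondrion and oxidise them were lower in KO_TAC almost throughout. Of 10 genes of the carnitine shuttle, 8 fell and none rose, with a median log2 fold change of -1.0. The list was lower in every KO_TAC heart, with a summed level of 754 to 951 CPM against 1598 to 1847 CPM in FF_sham. Of 18 fatty acid oxidation enzymes, 16 fell and none rose, with a median of -0.64. With the haemoglobin term the medians were -0.81 and -0.60, and 4 and 5 genes were called lower.

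Besides Cpt1a, the shuttle genes that fell included its muscle counterpart Cpt1b, which stood at 10.9, 10.8, 12.4 and 10.2 CPM in FF_sham and 7.14, 1.58, 2.11 and 5.54 CPM in KO_TAC. Its fall of 1.42 ± 0.42 (adjusted p = 0.0168) was not called without KO_TAC 3 (adjusted p = 0.0543). Reads of Cpt1b lie beside a same-strand gene that shares exons with it, so its low level is uncertain. Cpt2, the inner-membrane transferase that hands the fatty acid back to coenzyme A, stood at 214, 245, 207 and 247 CPM in FF_sham and 91.5, 116, 106 and 142 CPM in KO_TAC. It fell by 1.0 ± 0.14 (adjusted p = 2.22e-04) and stayed called with the haemoglobin term (-0.87 ± 0.20, adjusted p = 0.0366). Crat, carnitine acetyltransferase, fell by 1.12 ± 0.12 (adjusted p = 6.61e-05), and Acacb, the carboxylase whose product malonyl-CoA inhibits CPT1, fell by 1.23 ± 0.17 (adjusted p = 2.34e-04). Both were also called with the haemoglobin term. The carnitine importer Slc22a5 fell by 0.99 ± 0.22 (adjusted p = 0.00367) and was -0.75 with the term (adjusted p = 0.211). Crot, the peroxisomal octanoyltransferase, was not called at -0.25 ± 0.11 (adjusted p = 0.102).

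Within the beta-oxidation spiral, Hadh (chromosome 3, 131233419 to 131272101, minus strand), the short-chain hydroxyacyl-CoA dehydrogenase, was among the 5 genes with the smallest p over the whole comparison. Its level was 639, 623, 562 and 678 CPM in FF_sham and 267, 272, 256 and 317 CPM in KO_TAC. KO_sham held 424 to 554 CPM and FF_TAC 504 to 579 CPM, all above the KO_TAC range, and FF_TAC 4 overlapped the FF_sham range. The fall was 1.17 ± 0.11 (adjusted p = 2.54e-05), and -1.09 ± 0.15 with the haemoglobin term (adjusted p = 0.00682). Against FF_TAC, which shares the surgery, Hadh was -0.95 ± 0.10 in KO_TAC (adjusted p = 2.59e-04). Acaa2, the thiolase of the last step, stood at 940.3, 1025, 879 and 1060 CPM in FF_sham and 407, 456, 342 and 403 CPM in KO_TAC, a fall of 1.28 ± 0.13 (adjusted p = 4.38e-05). Acadvl, the very long-chain acyl-CoA dehydrogenase, fell by 0.95 ± 0.12 (adjusted p = 1.66e-04), and Hadha, a subunit of the trifunctional protein, by 0.83 ± 0.12 (adjusted p = 2.63e-04). All of these were called with the haemoglobin term. Acadl, the long-chain dehydrogenase, was not called: it was at 656, 1154, 1075 and 884 CPM in KO_TAC and 1017 to 1168 CPM in FF_sham.

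**Figure D1:**
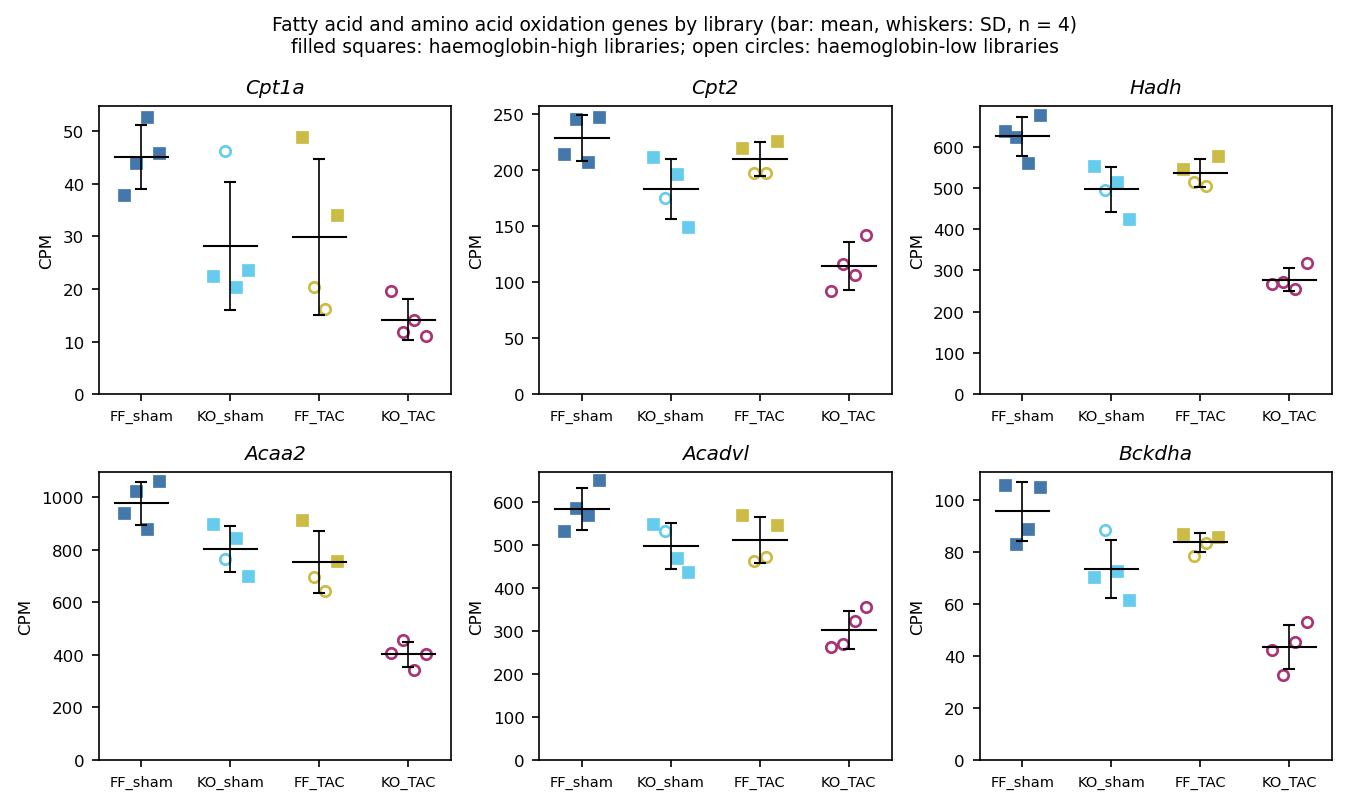
Levels of 6 oxidation genes (vertical axes, CPM from 0) in each heart of the 4 floxed groups, with the group mean and SD (n = 4); filled squares are haemoglobin-high and open circles haemoglobin-low libraries. The KO_TAC hearts lie below all FF_sham hearts in each panel, and for Cpt2, Hadh, Acaa2, Acadvl and Bckdha also below every KO_sham and FF_TAC heart.

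Uptake and activation of fatty acids was more mixed, with 10 of 19 genes lower, 1 higher and a median of -0.75 (-0.33 with the haemoglobin term, when 3 were called lower: Acsl1, Acot2 and Dgat2). Acsl1, the main acyl-CoA synthetase of the heart, fell from 811 to 940.3 CPM in FF_sham to 371, 298, 303 and 491 CPM in KO_TAC, by 1.25 ± 0.16 (adjusted p = 1.58e-04). Acot1, an acyl-CoA thioesterase, fell by 3.09 ± 0.52 (adjusted p = 8.14e-04) and was -2.28 with the haemoglobin term at an adjusted p of 0.0769, though it shares near-identical sequence with Acot2 and the split of such reads is not known. The uncoupling protein gene Ucp3 fell by 1.58 ± 0.46, a call that was lost without KO_TAC 2 (adjusted p = 0.0567). Acsl4, a synthetase that prefers arachidonic acid, was the 1 gene called higher (0.45 ± 0.15, adjusted p = 0.0311; 0.22 with the term), and that call was lost in 6 of 8 fits that each left out 1 library, those without FF_sham 1, 3 or 4 or KO_TAC 1, 3 or 4 (adjusted p up to 0.101). Lpl, lipoprotein lipase, and Fabp3, the heart fatty acid binding protein, spanned the FF_sham range: Lpl stood at 3321, 11761, 7851 and 5324 CPM in KO_TAC and 5271 to 7131 CPM in FF_sham, and Fabp3 at 1402, 5177, 4138 and 3149 CPM against 2923 to 3271 CPM. In both, KO_TAC 1 was the lowest and KO_TAC 2 the highest.

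Of 15 transcriptional regulators of metabolism, 8 fell and none rose (median -0.37, and -0.35 with the haemoglobin term, when none was called). Ppara, the fatty acid receptor that drives oxidation genes, stood at 7.88, 10.7, 8.71 and 10.2 CPM in FF_sham and 5.52, 6.46, 5.84 and 3.57 CPM in KO_TAC, and fell by 0.81 ± 0.22 (adjusted p = 0.0122). Its partner receptor Rxra fell by 1.04 ± 0.15 (adjusted p = 3.04e-04), the Krüppel-like factor Klf15 by 0.93 ± 0.16 (adjusted p = 7.57e-04), the striated muscle regulator Perm1 by 0.85 ± 0.12 (adjusted p = 2.73e-04) and the orphan receptor Esrrg by 0.56 ± 0.13 (adjusted p = 0.00495). The coactivator Ppargc1a was not called (-0.31 ± 0.17, adjusted p = 0.165), with overlapping groups.

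Of 29 genes of glucose use, 8 rose (27.6%) and 6 fell (20.7%), near the 18.6% and 15.3% over all genes, with a median of 0.09. The median was 0.07 with the haemoglobin term, with 3 called higher and 4 lower. Pfkp, the platelet isoform of phosphofructokinase, rose from 53.3, 43.0, 65.8 and 43.7 CPM to 76.2, 222, 195 and 160.4 CPM, by 1.67 ± 0.28 (adjusted p = 7.75e-04; 1.75 with the haemoglobin term, at an adjusted p of 0.0507). Slc16a3, a lactate exporter, rose by 2.28 ± 0.30 (adjusted p = 1.82e-04) and stayed called with the haemoglobin term (1.45 ± 0.31, adjusted p = 0.0317). Pfkfb3 rose by 2.65 ± 0.76, from 7.70, 29.5, 11.3 and 9.06 CPM to 54.6, 34.1, 101 and 171 CPM, and the haemoglobin-low FF_TAC 2 and 3 were as high, at 80.4 and 96.4 CPM. Its call was lost without FF_sham 1 or 4 (adjusted p up to 0.0546), and it was 0.43 with the haemoglobin term. Pfkfb1, another isoform of this bifunctional regulator of glycolysis, was 1 of the 12 largest falls. It stood at 13.7, 20.4, 11.3 and 23.9 CPM in FF_sham and at 1.72, 1.88, 1.28 and 1.43 CPM in KO_TAC, a fall of 3.46 ± 0.49 (adjusted p = 2.78e-04, and -3.22 with the term at an adjusted p of 0.0230). Pdk2, a kinase that inactivates pyruvate dehydrogenase, fell by 0.70 ± 0.11 (adjusted p = 4.23e-04). Its relative Pdk4 was not called (0.05 ± 0.52), with 124 to 905 CPM among the FF_sham hearts alone.

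Downstream of both fuels, 14 of 19 genes of the tricarboxylic acid cycle fell and none rose (median -0.38, and -0.44 with the haemoglobin term, when 4 were called lower). Cs, citrate synthase, fell from 1305, 1231, 1212 and 1348 CPM to 857, 711, 688 and 876 CPM (0.70 ± 0.10 lower on the log2 scale, adjusted p = 2.39e-04). Ogdhl, a 2-oxoglutarate dehydrogenase, fell by 1.70 ± 0.22 (adjusted p = 1.81e-04), and Sdha, a subunit of succinate dehydrogenase, by 0.64 ± 0.10 (adjusted p = 3.75e-04). Lower calls in the nuclear respiratory chain list were at the background, with 4 of 26 lower (Ndufs1, Uqcrc1, Uqcrc2 and Atp5a1), none higher and a median of 0.03. Ndufs1, the largest subunit of complex I, fell by 0.60 ± 0.10 (adjusted p = 8.32e-04) and was the 1 gene of the list called with the haemoglobin term (-0.68, adjusted p = 0.0366).

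Transcripts of the mitochondrial genome took a smaller share of the library in KO_TAC. Their share of all counts was 14.7% ± 3.10 in KO_TAC (12.1 to 18.7%; SD, n = 4) and 23.7% ± 1.69 in FF_sham (22 to 26.0%). The difference of -9.03 percentage points had p = 0.0286 in a two-sided exact permutation test, the smallest that 70 splits of 4 and 4 allow. Over protein-coding transcripts alone it was -8.53 (p = 0.0286, same exact test). Of 13 coding transcripts, 8 fell and none rose, with a median of -0.62. mt-Co1, a cytochrome oxidase subunit, went from 86383, 75656, 81808 and 99752 CPM to 51066, 31790, 36969 and 64567 CPM (-0.90 ± 0.18, adjusted p = 0.00200), and mt-Nd5, of complex I, changed by -1.02 ± 0.19 (adjusted p = 0.00154). The largest falls, of mt-Nd4l and mt-Atp8 (2.07 ± 0.56 and 1.94 ± 0.57), are uncertain because each overlaps a neighbour on the same strand, and that of mt-Atp8 was lost without FF_sham 1 or KO_TAC 3 (adjusted p up to 0.0757). None of the 13 was called with the haemoglobin term, at a median of -0.63. In the 3 other haemoglobin-low hearts the list summed to 209475 to 217019 CPM, inside the FF_sham range of 194833 to 252810 CPM, and in KO_TAC to 114481 to 177143 CPM.

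Breakdown of ketones and branched-chain amino acids showed 13 of 18 genes lower and none higher (median -0.57), and 9 stayed called with the haemoglobin term. The branched-chain keto acid dehydrogenase commits leucine, isoleucine and valine to oxidation. Its E1 subunit genes Bckdha and Bckdhb fell by 1.14 ± 0.14 (adjusted p = 1.37e-04) and 0.92 ± 0.12 (adjusted p = 1.96e-04). Its E2 core gene Dbt fell by 0.77 ± 0.12 (adjusted p = 5.03e-04). Bckdha stood at 106, 83.4, 89.0 and 105 CPM in FF_sham and 42.2, 32.9, 45.6 and 53.1 CPM in KO_TAC. These 3 were, with the haemoglobin term, -1.25, -1.12 and -0.76. The ketone-using enzymes Oxct1 (-0.08 ± 0.16, adjusted p = 0.717) and Bdh1 (0.88 ± 0.34, adjusted p = 0.0595) were not called.

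Of the 5 genes with the smallest p in the whole comparison, Hadh is described above, and the rest were Eepd1, P4ha1, Cyb561 and Adhfe1, all at an adjusted p of 2.54e-05. Eepd1, an endonuclease-like gene (chromosome 9, 25481547 to 25604110, plus strand), stood at 30.7, 24.8, 28.7 and 23.6 CPM in FF_sham and 12.0, 11.3, 10.9 and 11.6 CPM in KO_TAC. It fell by 1.23 ± 0.10. All KO_sham and FF_TAC hearts stayed between 20.7 and 29.6 CPM. P4ha1, a subunit of the prolyl hydroxylase that stabilises collagen (chromosome 10, 59323296 to 59373304, plus strand), rose by 1.41 ± 0.12, from 40.6, 44.9, 43.8 and 44.4 CPM to 106, 111, 129 and 115 CPM. Cyb561, a transmembrane cytochrome, rose by 1.10 ± 0.10. Adhfe1, a mitochondrial hydroxyacid transhydrogenase, fell by 1.21 ± 0.11. Counts of Cyb561 and Adhfe1 may include reads of an opposite-strand gene, since the strand setting of the counting is not given. All 5 stayed called with the haemoglobin term, with adjusted p between 0.00580 and 0.00682.

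**Figure D2:**
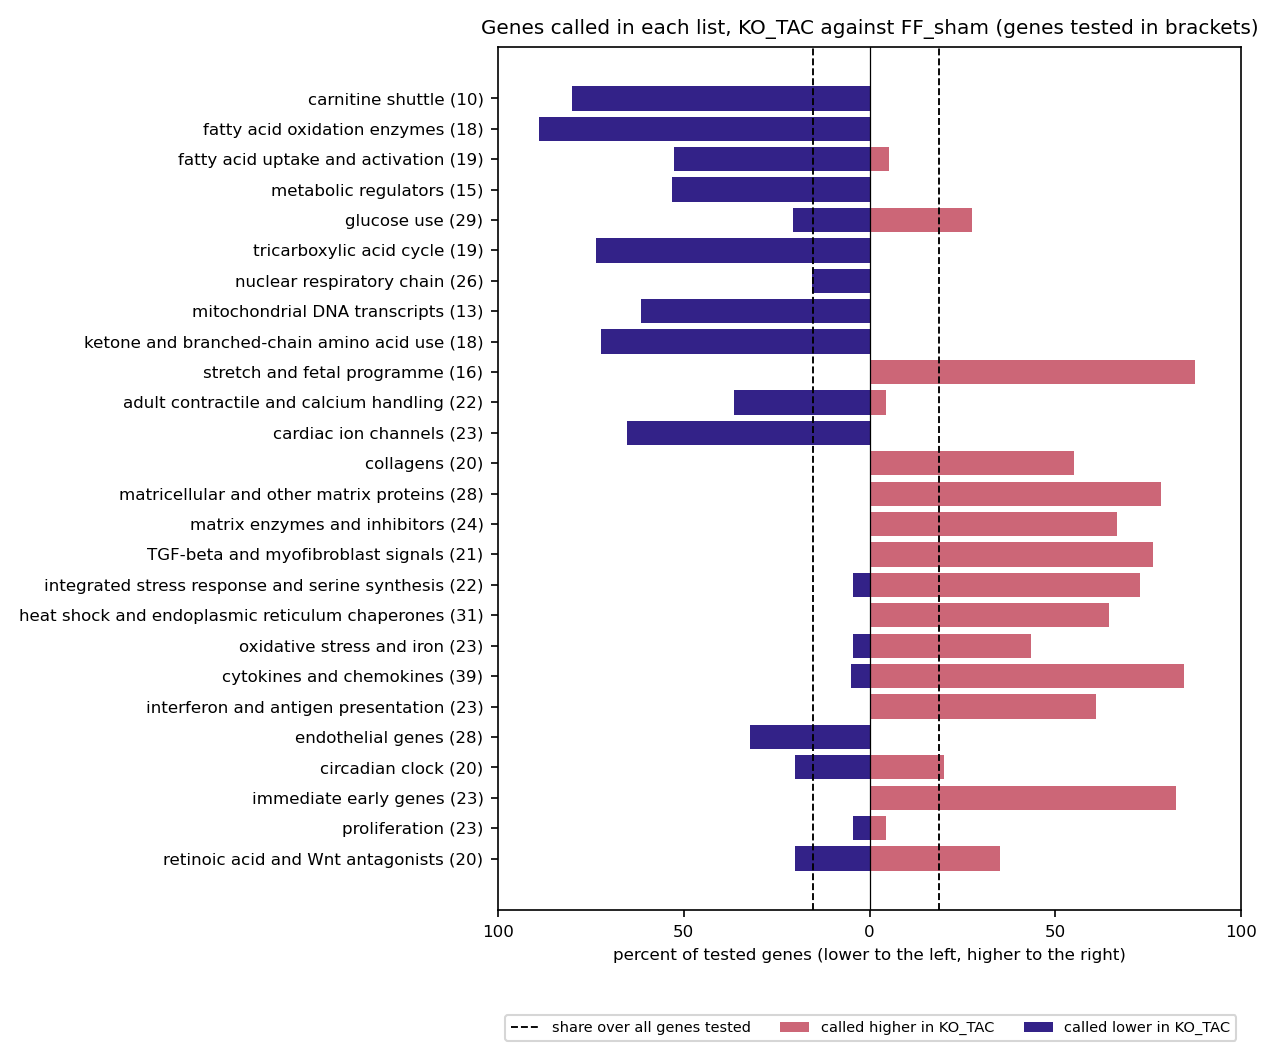
Share of the tested genes of each list called lower (to the left) or higher (to the right) in KO_TAC, in percent, with the number tested in brackets; dashed lines mark the share over all 15596 genes, 15.3% lower and 18.6% higher. Oxidation lists extend to the left, and matrix, stretch, cytokine and immediate early lists to the right.

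The stretch and fetal programme was higher in KO_TAC, with 14 of 16 tested genes higher, none lower and a median of 2.06. None of the 14 was called with the haemoglobin term, at a median of 1.69. Myh7, the slow myosin heavy chain of the fetal mouse ventricle (chromosome 14, 54970684 to 54994626, minus strand), stood at 611, 482, 668 and 514 CPM in FF_sham and 1642, 5429, 8109 and 3444 CPM in KO_TAC. It rose by 3.03 ± 0.48 (adjusted p = 5.82e-04) and was 2.04 ± 0.58 with the haemoglobin term (adjusted p = 0.0798). FF_TAC held 787, 1772, 3615 and 1355 CPM, which overlaps the KO_TAC range, and KO_sham 575 to 1046 CPM. Ankrd1, a stretch-responsive ankyrin repeat protein, stood at 1431, 987, 2499 and 1138 CPM in FF_sham and 5624, 17124, 14790 and 10111 CPM in KO_TAC, a rise of 2.98 ± 0.48 (adjusted p = 6.91e-04). Against FF_TAC, Myh7 was 1.31 ± 0.45 (adjusted p = 0.0656) and Ankrd1 1.42 ± 0.46 (adjusted p = 0.0502). Acta1, skeletal alpha-actin, rose by 3.23 ± 0.79 (adjusted p = 0.00782), but FF_sham 3 at 1190 CPM lay above KO_TAC 1 at 1134 CPM, and FF_TAC 2 and 3 reached 6913 and 5789 CPM.

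The natriuretic peptides that the stretched heart secretes were both higher. Nppb stood at 372, 54.3, 297 and 154 CPM in FF_sham and 849, 1292, 1090 and 783 CPM in KO_TAC. It was chosen after its values were seen, with a rise of 2.19 ± 0.53 (adjusted p = 0.00679). Nppa stood at 194, 2443, 283 and 14.4 CPM in FF_sham and 8749, 7087, 8692 and 4500 CPM in KO_TAC. Its rise of 3.31 ± 1.18 (adjusted p = 0.0453) was lost in each fit that left out 1 library except the one without FF_sham 2 (adjusted p up to 0.108). FF_sham 2 and KO_TAC 1 are the atrial-rich hearts, and without both Nppa was still called. Opposite-strand overlap makes the Nppa count uncertain. FF_TAC stood at 150.4 to 490.3 CPM, so the high Nppa level was seen in KO_TAC and not in the overloaded controls, and the difference from FF_TAC was 4.73 ± 1.26 (adjusted p = 0.0252). Uchl1, a deubiquitinase, rose by 2.82 ± 0.44 (adjusted p = 5.58e-04), Xirp2, an intercalated disc protein, by 2.27 ± 0.39 (adjusted p = 8.76e-04), and Des, the muscle intermediate filament desmin, by 1.70 ± 0.35 (adjusted p = 0.00268). For Myh7, Ankrd1, Xirp2 and Uchl1, KO_TAC 1 was the lowest KO_TAC heart. The smooth muscle actin Acta2 was not called (0.15 ± 0.34, adjusted p = 0.750).

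Adult contractile and calcium-handling genes fell in 8 of 22 cases and rose in 1, with a median of -0.11 (-0.22 with the haemoglobin term). Atp2a2, the calcium pump SERCA2, stood at 12125, 14861, 12060 and 14924 CPM in FF_sham and 10459, 4080, 4530 and 7805 CPM in KO_TAC, a fall of 1.01 ± 0.24 (adjusted p = 0.00638). Its inhibitor Pln fell by 0.63 ± 0.13 (adjusted p = 0.00240), the adult fast myosin Myh6 by 0.69 ± 0.18 (adjusted p = 0.00842) and the calcium channel gene Cacna1c by 0.77 ± 0.13 (adjusted p = 7.53e-04). Hrc, a histidine-rich calcium-binding protein of the sarcoplasmic reticulum, fell by 0.83 ± 0.12 and was the 1 gene of the list called with the haemoglobin term (-0.90 ± 0.18, adjusted p = 0.0219). Casq2, calsequestrin, was higher by 0.57 ± 0.17, a call lost without FF_sham 3 or 4 or KO_TAC 2 or 3 (adjusted p up to 0.0691). Opposite-strand genes overlap Myh6, Myh7, Atp2a2, Pln, Uchl1, Xirp2 and Des, whose counts are uncertain to that extent.

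Ion channel genes fell in 15 of 23 cases and none rose (median -0.75, and -0.40 with the haemoglobin term, when none was called). The list summed to 1078 to 1629 CPM in KO_TAC and 1639 to 2011 CPM in FF_sham. The haemoglobin-low hearts of KO_sham and FF_TAC, at 1196 to 1622 CPM, lay within the KO_TAC range, and the haemoglobin-high ones held 1580 to 1719 CPM. Kcnv2, a silent potassium channel subunit and 1 of the 12 largest falls, stood at 9.11, 15.3, 7.46 and 17.6 CPM in FF_sham and 3.25, 0.526, 0.723 and 0.893 CPM in KO_TAC (-3.14 ± 0.64, adjusted p = 0.00263). Scn4a, the skeletal muscle sodium channel, changed by -2.20 ± 0.46 (adjusted p = 0.00328), and Scn4b, a sodium channel beta subunit, by -1.69 ± 0.46 (adjusted p = 0.0126). Without the atrial-rich FF_sham 2 and KO_TAC 1, Scn4b was no longer called at -1.54. Scn4b and Kcna5 were -0.90 and -0.78 with the haemoglobin term. The potassium channels Kcnd2, which carries transient outward current, and Kcna5 fell by 1.95 ± 0.51 (adjusted p = 0.0102) and 1.34 ± 0.31 (adjusted p = 0.00478), and the pacemaker channel Hcn4 by 1.19 ± 0.30 (adjusted p = 0.00850). The potassium channel Kcnq1 was not called (0.01 ± 0.13, adjusted p = 0.965).

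Extracellular matrix genes were higher in KO_TAC. Of 20 collagens tested, 11 rose and none fell (median 0.69). Of 28 matricellular and other matrix proteins, 22 rose and none fell (median 2.09). Of 24 matrix enzymes and inhibitors, 16 rose and none fell (median 1.36). With the haemoglobin term 7, 10 and 8 genes of these lists were called higher, at medians of 0.71, 1.60 and 1.08. Of the fibroblast markers, 3 of 7 rose (Col1a1, Col1a2 and Dcn, which are matrix genes themselves), and Pdgfra, Tcf21, Lum and Gsn were not called. The summed level of the 7 markers was 3045 to 4214 CPM in KO_TAC against 2015 to 2318 CPM in FF_sham. Their part in the matrix result was not tested.

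Postn, periostin, a matricellular protein secreted by activated fibroblasts (chromosome 3, 54361109 to 54391037, plus strand), stood at 25.4, 34.2, 41.9 and 35.3 CPM in FF_sham and 141, 520.2, 640.2 and 617 CPM in KO_TAC. It rose by 3.81 ± 0.48 (adjusted p = 1.81e-04), and by 3.17 ± 0.65 with the haemoglobin term (adjusted p = 0.0254). The FF_TAC hearts were at 40.6, 114, 156 and 73.9 CPM and the KO_sham hearts at 45.3 to 94.0 CPM, all but FF_TAC 3 below KO_TAC 1, the lowest heart of its group. Against FF_TAC, Postn was 2.32 ± 0.45 (adjusted p = 0.00453). Comp, cartilage oligomeric matrix protein, stood at 6.48, 8.94, 6.60 and 3.95 CPM in FF_sham and 63.9, 132, 307 and 42.8 CPM in KO_TAC, a rise of 4.39 ± 0.72 (adjusted p = 8.73e-04). For Comp the FF_TAC hearts, at 3.37 to 7.24 CPM, were within or near the FF_sham range. Ltbp2, which binds fibrillin, rose by 4.28 ± 0.52 (adjusted p = 1.39e-04), Thbs4, a thrombospondin of the loaded heart, by 4.07 ± 0.42 (adjusted p = 5.56e-05) and Cilp, cartilage intermediate layer protein, by 3.86 ± 0.46 (adjusted p = 1.39e-04). These 3 and Comp were called with the haemoglobin term at 3.43 to 4.17. Thbs1 behaved otherwise: it rose by 5.21 ± 1.16 (adjusted p = 0.00507) but was 1.45 with the haemoglobin term, and the 3 other haemoglobin-low hearts held 92.1 to 172 CPM against 4.34 to 7.63 CPM in FF_sham.

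**Figure D3:**
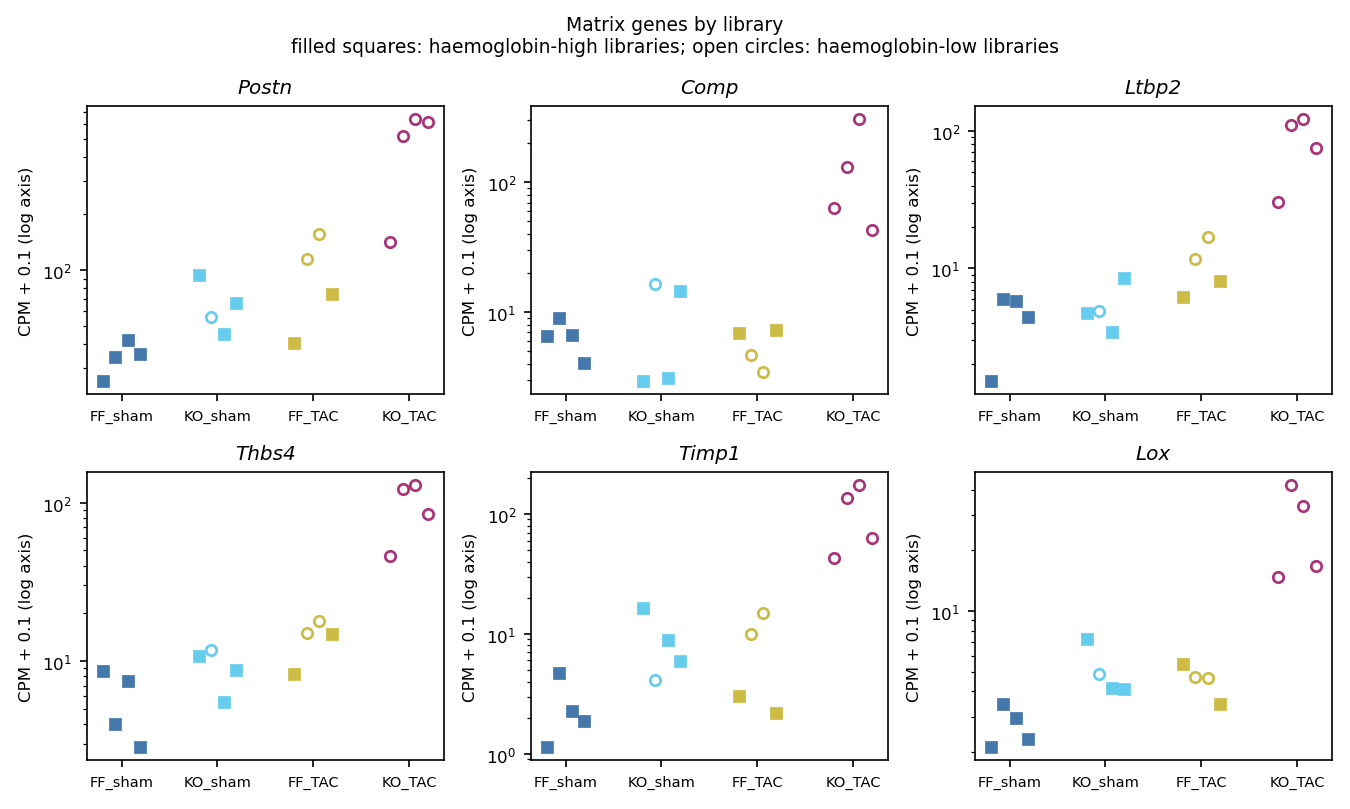
Levels of 6 matrix genes (log axes, CPM plus 0.1) in each heart of the 4 floxed groups; filled squares are haemoglobin-high and open circles haemoglobin-low libraries. The KO_TAC hearts lie above all FF_sham hearts in each panel, and the haemoglobin-low hearts of KO_sham and FF_TAC lie below most of them.

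Among the collagens, the fibril-associated Col12a1 rose most of the genes named, from 0.978, 1.31, 1.42 and 1.11 CPM to 8.82, 10.7, 16.5 and 14.0 CPM (3.37 ± 0.36, adjusted p = 6.10e-05). Col8a1, a short-chain collagen, rose by 2.93 ± 0.39 (adjusted p = 2.26e-04), Col16a1 by 1.75 ± 0.21 (adjusted p = 1.12e-04) and Col5a2, which sets fibril diameter, by 1.68 ± 0.21 (adjusted p = 1.37e-04). All 4 stayed called with the haemoglobin term. Col14a1 rose by 1.22 ± 0.28 (adjusted p = 0.00491). The abundant fibrillar collagens, chosen after their values were seen, rose less: Col1a1 from 108, 126, 136 and 115 CPM to 248, 241, 218 and 299 CPM (1.05 ± 0.20, adjusted p = 0.00140), and Col3a1 by 0.87 ± 0.32 (adjusted p = 0.0477), a call lost in each fit without 1 library except that without KO_TAC 3 (adjusted p up to 0.135). In KO_sham, Col3a1 reached 653 CPM. The basement membrane collagen Col4a1 was not called (0.28 ± 0.18, adjusted p = 0.230).

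Enzymes that build or remodel the matrix followed. Lox, which cross-links collagen and elastin, stood at 2.02, 3.38, 2.85 and 2.22 CPM in FF_sham and 14.7, 42.1, 33.1 and 16.6 CPM in KO_TAC. Its rise of 3.34 ± 0.33 (adjusted p = 4.38e-05) was 3.33 ± 0.49 with the haemoglobin term (adjusted p = 0.00759), and no KO_sham or FF_TAC heart exceeded 7.15 CPM. Timp1, an inhibitor of matrix metalloproteinases (chromosome X, 20870166 to 20874735, plus strand), rose from 1.04, 4.58, 2.16 and 1.79 CPM to 42.9, 136, 174 and 63.1 CPM, by 5.43 ± 0.77 (adjusted p = 3.77e-04). The serpin gene Serpina3n rose by 4.11 ± 0.75 (adjusted p = 0.00165) and was uneven within KO_TAC, at 45.2, 321, 404 and 57.5 CPM. Timp1 and Serpina3n were called with the haemoglobin term as well (4.49 and 4.59). Adamts4, a proteoglycan-cleaving protease, rose by 6.19 ± 1.56 (adjusted p = 0.00982), but was 1.29 with the haemoglobin term. It stood at 16.8, 46.5 and 86.7 CPM in the 3 other haemoglobin-low hearts, against 0.491 to 2.05 CPM in FF_sham.

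Of 21 genes of a list of TGF-beta and myofibroblast signals, which holds ligands, receptors, inhibitors and other genes, 16 rose and none fell (median 1.56, and 0.81 with the haemoglobin term, when 5 were called higher). Inhba, the activin A subunit, stood at 2.02, 1.64, 2.73 and 2.65 CPM in FF_sham and 20.1, 10.5, 22.2 and 17.0 CPM in KO_TAC (2.95 ± 0.34, adjusted p = 7.83e-05). Meox1, a transcription factor of activated fibroblasts, rose by 2.11 ± 0.28 (adjusted p = 2.16e-04) and the ligand Tgfb2 by 2.1 ± 0.25 (adjusted p = 1.18e-04). These 3 stayed called with the haemoglobin term (2.02, 2.26 and 1.85). Gdf15, a circulating stress cytokine of the family, rose by 4.36 ± 0.72 (adjusted p = 8.29e-04) and was 2.83 ± 0.95 with the term (adjusted p = 0.13). Fap, a marker of activated fibroblasts, was not called (-0.07 ± 0.20, adjusted p = 0.808).

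Transcripts of the integrated stress response, in which ATF4 raises genes of amino acid supply and the factors ATF3 and CHOP, were mostly higher in KO_TAC. The list summed to 1268 to 1612 CPM in KO_TAC and 616 to 718 CPM in FF_sham. In the 3 other haemoglobin-low hearts it summed to 1149 to 1267 CPM, just below KO_TAC. Of 22 genes tested, 16 rose and 1 fell (median 1.13). With the haemoglobin term the median was 0.63 and 3 were called higher, Nupr1, Trib3 and Slc3a2. Among the 16 of the 17 called genes that had a promoter in the RefSeq table of the GRCm38.p6 build (250 bases before to 50 after the start), 6 held the letters TGATGNAA, the ATF4 and C/EBP composite element, on either strand (37.5%), against 4.51% of all 27025 promoters. The 6 were Asns, Atf3, Nupr1, Pycr1, Trib3 and Vldlr. The list was written around the ATF4 response and with earlier results known, so this excess is not a test. Among called genes of the other lists searched, the element was in 1 of 14 immediate early promoters (7.14%, Atf3). It was in 1 of 13 fatty acid oxidation promoters (7.69%) and 0 of 7 clock promoters. The windows of 4 of them are printed because these genes carry the values given next. The element is in capitals, and each is on the minus strand of its chromosome: Asns at chr6:7693160-7693459, Atf3 at chr1:191183284-191183583, Nupr1 at chr7:126625421-126625720 and Trib3 at chr2:152344011-152344310. In Asns the match runs with the gene, TGATGAAA, and in the others it lies on the opposite strand, so that it reads TTGCATCA in Atf3 and Nupr1 and TTACATCA in Trib3.
Asns: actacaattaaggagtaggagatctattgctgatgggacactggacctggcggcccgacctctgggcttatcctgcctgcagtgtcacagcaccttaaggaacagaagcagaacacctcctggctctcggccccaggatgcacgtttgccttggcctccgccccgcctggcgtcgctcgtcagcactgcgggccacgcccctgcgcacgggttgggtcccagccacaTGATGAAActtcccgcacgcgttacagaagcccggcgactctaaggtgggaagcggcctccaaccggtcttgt
Atf3: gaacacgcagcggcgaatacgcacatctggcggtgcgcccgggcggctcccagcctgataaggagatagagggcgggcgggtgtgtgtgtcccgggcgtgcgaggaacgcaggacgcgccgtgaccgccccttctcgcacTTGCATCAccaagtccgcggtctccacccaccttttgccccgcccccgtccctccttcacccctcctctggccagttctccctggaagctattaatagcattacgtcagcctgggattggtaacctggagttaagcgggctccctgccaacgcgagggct
Nupr1: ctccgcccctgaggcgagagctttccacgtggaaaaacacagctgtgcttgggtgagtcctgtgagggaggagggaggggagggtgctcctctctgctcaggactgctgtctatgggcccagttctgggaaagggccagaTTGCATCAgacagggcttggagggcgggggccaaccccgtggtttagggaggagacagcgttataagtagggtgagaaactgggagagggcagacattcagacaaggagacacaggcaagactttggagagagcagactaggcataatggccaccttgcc
Trib3: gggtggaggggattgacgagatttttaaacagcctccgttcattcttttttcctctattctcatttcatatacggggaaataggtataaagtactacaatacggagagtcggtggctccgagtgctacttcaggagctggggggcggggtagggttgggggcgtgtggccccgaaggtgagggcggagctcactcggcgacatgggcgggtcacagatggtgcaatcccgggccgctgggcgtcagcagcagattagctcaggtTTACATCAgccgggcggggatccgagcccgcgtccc
The element starts 23 bases before the annotated start in Asns, 110 bases before it in Atf3 and Nupr1, and lies just after it in Trib3. A match of these letters is a description of the window and not a measured binding site. The AP-1 letters TGANTCA were found in 1 of the 16 promoters (Ddit3; 6.25%, against 8.97% of all promoters). None of the other motifs searched on both strands (the cyclic AMP response element TGACGTCA, the E-box CACGTG, a nuclear receptor repeat and an NF-kappa-B motif) was in more than 2 of the 16.

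Nupr1, a stress-induced chromatin protein, stood at 5.38, 4.52, 5.35 and 4.62 CPM in FF_sham and 47.3, 141, 133 and 54.8 CPM in KO_TAC. It rose by 4.24 ± 0.65 (adjusted p = 5.58e-04) and was 2.27 ± 0.54 with the haemoglobin term (adjusted p = 0.0453), while the 3 other haemoglobin-low hearts held 11.9 to 26.2 CPM. Asns, asparagine synthetase, rose from 2.26, 3.11, 3.93 and 2.1 CPM to 10.4, 11.6, 21.1 and 33.2 CPM (2.74 ± 0.50, adjusted p = 0.00128). Mthfd2, of mitochondrial one-carbon metabolism, rose by 2.69 ± 0.41 (adjusted p = 4.35e-04), with no FF_TAC or KO_sham heart above 7.55 CPM and every KO_TAC heart at 16.1 CPM or more. Including the haemoglobin term, these were 1.39 (adjusted p = 0.234) and 1.93 (adjusted p = 0.0892). Trib3, a pseudokinase that feeds back on ATF4, was chosen after its values were seen: it rose by 1.27 ± 0.31 (adjusted p = 0.00655), and by 1.84 ± 0.43 with the term (adjusted p = 0.0428). Ddit3, which encodes CHOP, rose by 2.1 ± 0.39 (adjusted p = 0.00162; 0.91 with the term, adjusted p = 0.194), with exon overlap on both strands. Atf3 rose by 6.10 ± 1.88 (adjusted p = 0.0244), from 2.44 to 5.67 CPM to 596, 143, 136 and 226 CPM. It was as high in the 3 other haemoglobin-low hearts (280.3 to 388 CPM), stood at 0.04 with the term, and lost its call without any 1 FF_sham library (adjusted p up to 0.0630). Vldlr, a lipoprotein receptor, was the 1 gene that fell (0.53 ± 0.11, adjusted p = 0.00200).

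Chaperones were higher: 20 of 31 genes rose and none fell (median 0.55). The median was 0.41 with the haemoglobin term, when Hsp90aa1 and Sdf2l1 were called. The inducible heat shock genes Hspa1a and Hspa1b, near-identical copies whose reads may be split between them, rose by 7.57 ± 2.04 (adjusted p = 0.0133) and 7.76 ± 2.09 (adjusted p = 0.0131). Hspa1a stood at 1.02 to 2.71 CPM in FF_sham, 179.8, 479, 581 and 269 CPM in KO_TAC, and 28.0, 165 and 208 CPM in the 3 other haemoglobin-low hearts. Hspa1a was 1.56 ± 0.80 with the haemoglobin term (adjusted p = 0.318) and Hspa1b 1.74 (adjusted p = 0.310). Dnajb1, a co-chaperone, rose by 3.35 ± 1.04 and was 0.02 with the term, and its call was lost without any 1 FF_sham library or KO_TAC 3 (adjusted p up to 0.0633). Hsp90aa1, the inducible form of HSP90, was called in both fits: it rose from 110.1, 103, 126 and 118 CPM to 518, 1264, 1098 and 563 CPM (2.91 ± 0.42, adjusted p = 3.32e-04; 1.60 ± 0.34 with the term, adjusted p = 0.0302). Oxidative stress and iron genes rose in 10 of 23 cases and fell in 1 (median 0.45, and 0.33 with the haemoglobin term, when none was called). The metallothionein Mt2 rose by 3.65 ± 0.52 (adjusted p = 3.44e-04), the haem-degrading Hmox1 by 2.21 ± 0.45 (adjusted p = 0.00258), and the iron exporter Slc40a1 fell by 1.69 ± 0.39 (adjusted p = 0.00503). These were 2.68 (adjusted p = 0.0506), 0.70 (adjusted p = 0.231) and -1.41 (adjusted p = 0.184) with the term.

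Cytokines and chemokines held most of the largest rises. Their list also holds other genes, such as the nitric oxide synthase Nos2 and the adhesion molecule Selp. Of its 39 genes tested, 33 rose and 2 fell, with a median of 6.35. With the haemoglobin term the median was 1.46 and 3 were called higher, Ccl4, Il1rn and Selp. Il6 (chromosome 5, 30013114 to 30019981, plus strand) had no count in any FF_sham heart and stood at 109, 27.9, 60.4 and 86.8 CPM in KO_TAC, at least 404-fold higher against a floor of 3 counts per library. The 3 other haemoglobin-low hearts held 35.1 to 42.7 CPM, and the 5 haemoglobin-high hearts of KO_sham and FF_TAC at most 0.105 CPM. Its adjusted p of 0.0340 was lost in each fit without 1 library except that without KO_TAC 1 (up to 0.0675). Csf2, which drives granulocyte and macrophage growth and overlaps an opposite-strand gene, was also at 0 in FF_sham and in KO_TAC at least 49.3-fold higher (adjusted p = 0.0112). It stood at 2.71 to 13.1 CPM in KO_TAC. The haemoglobin-low FF_TAC 2 and 3 held 8.62 and 15.2 CPM and KO_sham 2 held 0.0608 CPM, while the haemoglobin-high KO_sham and FF_TAC hearts held 0. With the haemoglobin term Csf2 was 0.99 and not called. The neutrophil chemokines Cxcl1 and Cxcl2 rose by 9.82 ± 2.54 (adjusted p = 0.0111) and 10.78 ± 2.89 (adjusted p = 0.0129). Il6, Cxcl1 and Cxcl2 were 3.56 (adjusted p = 0.474), 1.82 (adjusted p = 0.121) and 1.85 (adjusted p = 0.352) with the haemoglobin term. Cxcl1 went from 0.428, 1.20, 0.683 and 0.925 CPM to 419, 745, 757 and 1054 CPM. For Cxcl3, with 1 count in all FF_sham libraries, the ratio was 489 with a 95% counting interval of 87.3 to 19344.

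The remaining genes among the 12 largest rises were the early response gene Fosb (8.95), the macrophage chemokines Ccl4 (8.81) and Ccl3 (8.35), the interleukins Il1b (8.45) and Il1a (8.17), Acod1, which makes itaconate (8.40), and the pentraxin Ptx3 (7.92). Ccl4 stood between 17.2 and 55.4 CPM in KO_TAC, 9.39 to 12.2 CPM in the 3 other haemoglobin-low hearts and at most 0.114 CPM in FF_sham, and was called with the haemoglobin term (3.44 ± 0.84, adjusted p = 0.0495). Acod1 stood at 4.83, 16, 32.4 and 35.1 CPM in KO_TAC against 0.790 to 3.37 CPM in those 3 hearts, and was 3.79 ± 1.75 with the term (adjusted p = 0.266). Il1a was 0.49 with it, Il1b 1.68, Ccl3 2.63, Cxcl3 2.25 and Ptx3 2.80, none of them called. The 2 genes that fell were Cxcl12, a chemokine made by vessel and stromal cells (1.49 ± 0.23 lower on the log2 scale, adjusted p = 4.98e-04; -0.99 with the term), and the nitric oxide synthase Nos2 (1.42 ± 0.26 lower on the log2 scale, adjusted p = 0.00143). Macrophage markers were moderately higher, with 6 of 10 risen and a summed level of 455 to 504 CPM against 243 to 362 CPM. C1qa rose by 1.02 ± 0.19 (adjusted p = 0.00126), Cd68 by 0.90 ± 0.19 (adjusted p = 0.00302) and Lyz2 by 0.67 ± 0.22, the last a call lost without FF_sham 1, 3 or 4 or KO_TAC 3 (adjusted p up to 0.0953). None of the 10 was called with the haemoglobin term, at a median of 0.75 in both fits. In the 3 other haemoglobin-low hearts the marker sum was 286 to 351 CPM, inside the FF_sham range, and in the 5 haemoglobin-high hearts of KO_sham and FF_TAC it was 284 to 708 CPM, reaching above KO_TAC. KO_sham 1 held C1qa at 83.3, Cd68 at 19.7 and Lyz2 at 313 CPM. Of 7 neutrophil markers, 2 could be tested and 1 rose (Csf3r), and their summed level was 2.51 to 6.40 CPM in KO_TAC and 1.36 to 3.02 CPM in FF_sham. The part of these cells in the cytokine result was not tested.

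Immediate early genes, many of them transcription factors, are induced within minutes of a stimulus. They rose in 19 of 23 cases and none fell (median 4.13). The median with the haemoglobin term was -0.39 and none was called. Fos stood at 1.04, 4.80, 1.20 and 2.34 CPM in FF_sham, 692, 104, 40.0 and 164 CPM in KO_TAC, and 145, 259.7 and 611 CPM in the 3 other haemoglobin-low hearts. It rose by 6.72 ± 2.33 (adjusted p = 0.0408), but the call was lost without any 1 of the 8 libraries (adjusted p up to 0.0943), and it was -0.59 with the term. Fosb was highest in KO_TAC 1, at 510.3 CPM, and its call was lost without any 1 library except KO_TAC 4 (adjusted p up to 0.0918). Egr2 and Egr3 rose by 5.89 ± 1.82 (adjusted p = 0.0244) and 6.16 ± 1.87 (adjusted p = 0.0229), calls lost without FF_sham 1, 3 or 4 (adjusted p up to 0.0653), and were -0.03 and -0.02 with the term. Fosl1 rose by 6.70 ± 1.76 (adjusted p = 0.0111), and was 0.84 with the term. It stood at 9.75, 0.976, 4.12 and 12.3 CPM in KO_TAC and at most 0.122 CPM in FF_sham, with 4 counts over all FF_sham libraries.

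**Figure D4:**
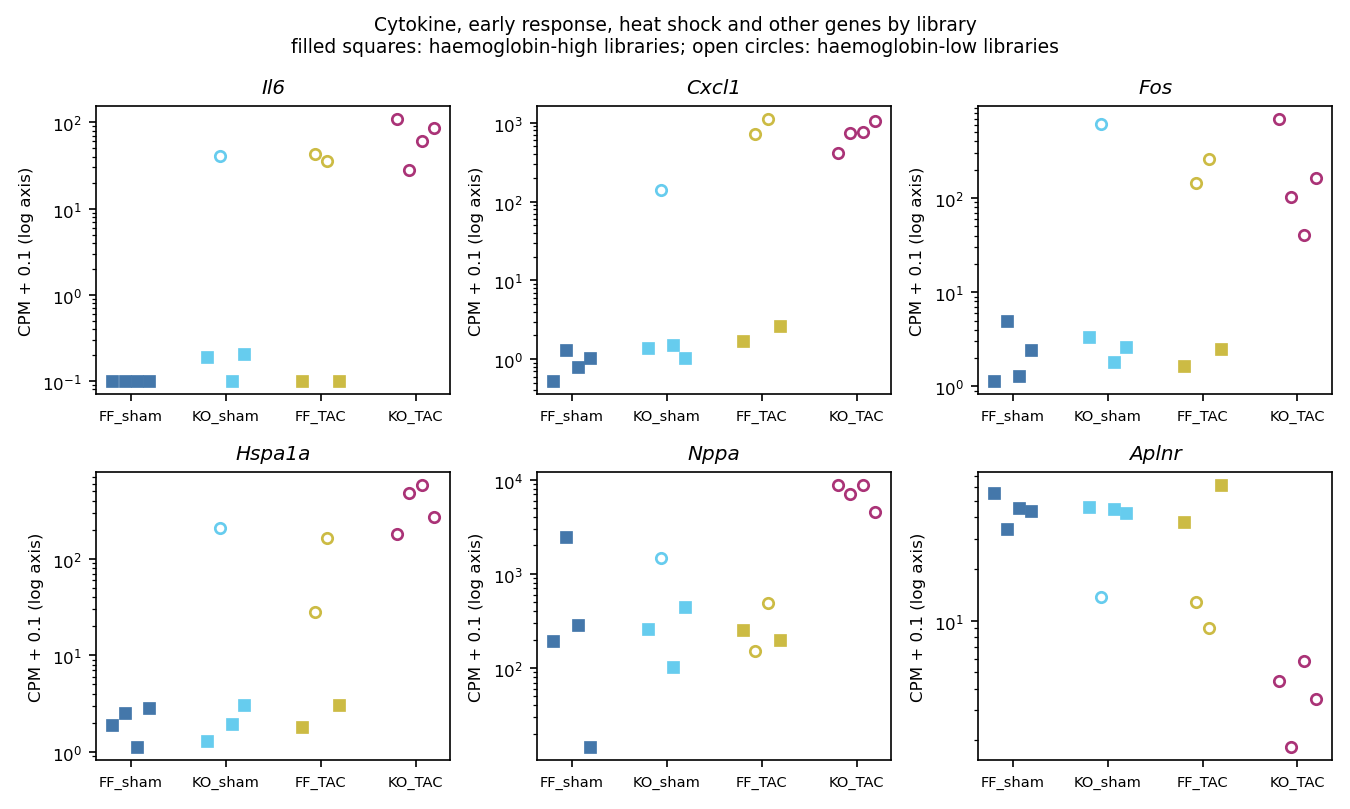
Levels of 6 genes (log axes, CPM plus 0.1) in each heart of the 4 floxed groups; filled squares are haemoglobin-high and open circles haemoglobin-low libraries. Il6, Cxcl1, Fos and Hspa1a are high in all 7 haemoglobin-low hearts, while the KO_TAC hearts are apart from every other heart for Nppa and Aplnr.

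Interferon-induced and antigen presentation genes rose in 14 of 23 cases and none fell (median 0.72). The median was 0.54 with the haemoglobin term, and Ifit1 alone was then called. The KO_TAC hearts were uneven here. Ifit1, which binds foreign RNA, stood at 21.6, 30.3, 157 and 186 CPM in KO_TAC and 5.01, 6.60, 7.69 and 4.38 CPM in FF_sham, a rise of 4.06 ± 0.61 (adjusted p = 5.05e-04; 3.58 ± 0.83 with the haemoglobin term, at an adjusted p of 0.0428). Ifit3 stood at 12.9, 14.0, 89.5 and 95.3 CPM and the antiviral GTPase Mx1 at 1.67, 1.28, 15.6 and 21 CPM in KO_TAC, so that KO_TAC 3 and 4 were high and KO_TAC 1 and 2 close to the highest FF_sham values of 13.7 and 1.48 CPM. They rose by 2.43 ± 0.58 (adjusted p = 0.00684) and 3.63 ± 0.82 (adjusted p = 0.00463), and were 2.95 (adjusted p = 0.0776) and 4.70 (adjusted p = 0.0600) with the term. Isg15, a ubiquitin-like protein, rose by 3.41 ± 0.54 (adjusted p = 6.04e-04; 2.37 with the term, adjusted p = 0.0776), at 13.3, 25.9, 84.3 and 68.1 CPM in KO_TAC. Irf1 did not share the split, at 178, 332, 403 and 309 CPM, and the 3 other haemoglobin-low hearts held 109.6 to 249.7 CPM (3.47 ± 0.73, adjusted p = 0.00346; 0.89 with the term).

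Endothelial genes fell in 9 of 28 cases and none rose (median -0.36, and -0.42 with the haemoglobin term, when Aplnr alone was called). Aplnr, the apelin receptor (chromosome 2, 85136225 to 85139923, plus strand), was 1 of the 12 largest falls. It stood at 55.2, 34.2, 45.1 and 43.7 CPM in FF_sham and 4.33, 1.73, 5.67 and 3.39 CPM in KO_TAC, a fall of 3.54 ± 0.60 (adjusted p = 9.74e-04). The 3 other haemoglobin-low hearts were intermediate at 8.96 to 13.7 CPM, and Aplnr was -1.56 ± 0.37 with the haemoglobin term (adjusted p = 0.0457). The glycerol channel Aqp7 fell by 2.95 ± 0.54 (adjusted p = 0.00142), the capillary carbonic anhydrase Car4 by 1.74 ± 0.28 (adjusted p = 6.00e-04), the endothelial factor Sox18 by 1.73 ± 0.46 (adjusted p = 0.0115) and the VEGF receptor Kdr by 1.36 ± 0.24 (adjusted p = 9.88e-04). With the term these were -1.04, -1.43, -0.18 and -0.90, none of them called. The 7 endothelial markers, 4 of which fell, summed to 583 to 747 CPM in KO_TAC, 779 to 1019 CPM in FF_sham and 854 to 957 CPM in the 3 other haemoglobin-low hearts, and the part of endothelial cell content in these falls was not tested. Pecam1, a pan-endothelial adhesion molecule, was not called (-0.01 ± 0.13, adjusted p = 0.963), at 155 to 209.9 CPM in KO_TAC and 171 to 182 CPM in FF_sham.

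In the list of retinoic acid genes and Wnt antagonists, 7 of 20 rose (35.0%, against 18.6% over all genes) and 4 fell (20.0%, against 15.3%), at a median of 0.30. The median was 0.57 with the haemoglobin term, with 2 called higher and 1 lower. Cyp26b1, which degrades retinoic acid, was among the largest falls, from 7.94, 30.2, 9.39 and 3.95 CPM to 1.72, 1.05, 0.556 and 1.07 CPM (-3.53 ± 0.84, adjusted p = 0.00656; -4.60 with the haemoglobin term, at an adjusted p of 0.0369). Frzb, a secreted Wnt antagonist, rose by 2.35 ± 0.30 (adjusted p = 1.51e-04; 1.93 with the term, adjusted p = 0.0338). The Wnt inhibitor Wif1 fell by 1.95 ± 0.69, a call lost without FF_sham 2 or 4 or KO_TAC 2, 3 or 4 (adjusted p up to 0.110). Proliferation genes were at or below the background, with 1 of 23 higher (Pcna, 0.69 ± 0.19, adjusted p = 0.0132; -0.02 with the haemoglobin term) and 1 lower. The latter was Cenpf, a centromere protein gene, at 57.9, 20.3, 17.4 and 45.7 CPM in FF_sham and 5.52, 1.35, 4.06 and 6.25 CPM in KO_TAC (-3.02 ± 0.53, adjusted p = 0.00116; -3.50 with the term, adjusted p = 0.0230). FF_TAC was also low for Cenpf, at 4.28 to 13.1 CPM. The cell cycle marker Mki67 was not called (1.0 ± 0.47, adjusted p = 0.107).

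Clock genes rose in 4 of 20 cases (Noct, Bhlhe40, Nfil3 and Rora) and fell in 4 (Dbp, Hlf, Tef and Nr1d1), near the background in both directions (median 0.06, and -0.37 with the haemoglobin term, when none was called). Noct, a clock-controlled phosphatase, rose by 2.79 ± 0.69 (adjusted p = 0.00839) and the factor Nfil3 by 1.40 ± 0.34 (adjusted p = 0.00605), and they were 0.46 (adjusted p = 0.742) and 0.55 (adjusted p = 0.474) with the haemoglobin term. FF_TAC 2 and 3 held Noct at 218 and 308 CPM, within the KO_TAC range of 124 to 347 CPM. Bhlhe40 rose by 1.63 ± 0.50 and was -0.20 with the haemoglobin term, and its call was lost without FF_sham 1, 2 or 3 or KO_TAC 1 (adjusted p up to 0.0537). The output factors Hlf and Dbp fell by 1.33 ± 0.41 and 0.94 ± 0.30. The call of Hlf was lost without FF_sham 2, KO_TAC 2 or KO_TAC 3, and that of Dbp without FF_sham 1, FF_sham 2 or KO_TAC 3 (adjusted p up to 0.0793). The core gene Arntl was not called, at 22.6, 5.56, 13.2 and 5.06 CPM in KO_TAC and 5.29 to 16.3 CPM in FF_sham.

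The 12 largest falls were led by transcripts of red cells. Alas2, the erythroid enzyme of haem synthesis, fell by 5.38 ± 1.55 (adjusted p = 0.0182), and Hba-a2, Hbb-bt, Hba-a1 and Hbb-bs by 5.33, 4.97, 4.89 and 4.84. Alas2 stood at 13.7 to 20.7 CPM in FF_sham and 1.38, 0.0751, 0.0556 and 0.0595 CPM in KO_TAC. The 3 other haemoglobin-low hearts held 0.0603 to 0.182 CPM. Haemoglobin copies are near-identical, so the split among them is uncertain. These calls were lost in 2 (Alas2), 3 (Hba-a2), 4 (Hbb-bt), 7 (Hba-a1) and 7 (Hbb-bs) of the 8 fits without 1 library, with an adjusted p up to 0.113. KO_TAC 1 sets their size: without it the values were -8.05, -6.33, -6.48, -6.24 and -6.00 in the same order of genes. The unnamed transcripts 9430062P05Rik and Gm38102 were also among the 12, with falls of 3.86 ± 0.66 (adjusted p = 8.73e-04) and 3.64 ± 0.68 (adjusted p = 0.00143). They were -2.26 and -1.75 with the haemoglobin term, and the 5 transcripts of red cells had values above 0, none of these called. The haemoglobin genes themselves define that term, so their values with it are not an independent result.

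**Figure D5:**
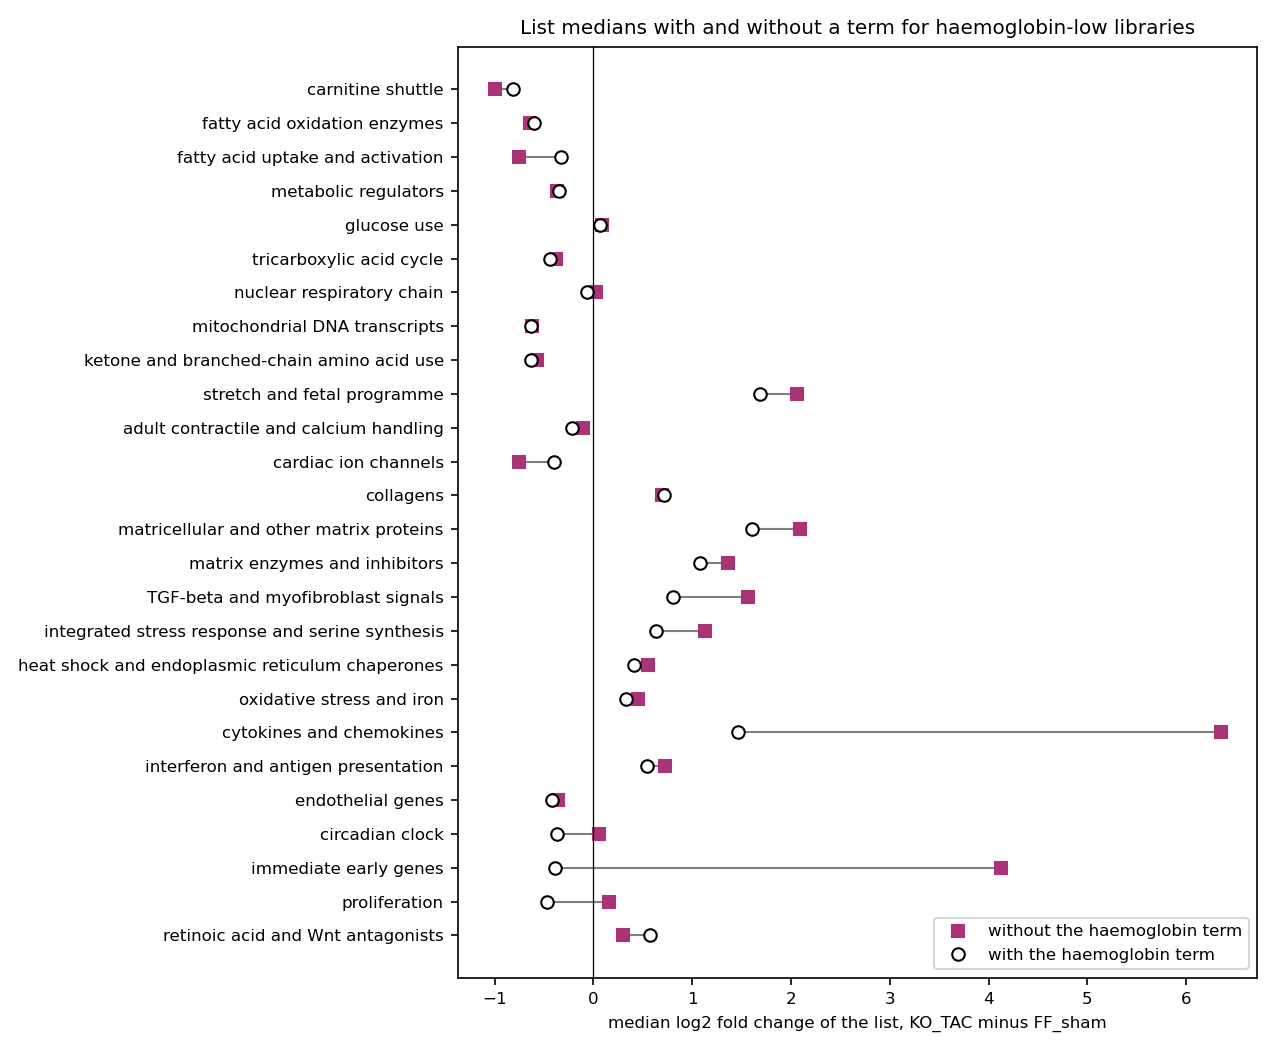
Median log2 fold change of each list, KO_TAC against FF_sham (horizontal axis), without the haemoglobin term (squares) and with it (circles). The medians of the fatty acid oxidation, collagen and mitochondrial DNA lists move by less than 0.1, while those of cytokines go from 6.35 to 1.46 and of immediate early genes from 4.13 to -0.39.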

How the data were processed

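Poly(A) RNA of whole hearts was sequenced with a strand-marking kit, per the labels' protocols. The deposited table holds raw whole-number counts per gene and library. Per the submitters' processing notes, HISAT2 2.1.0, featureCounts, Subread 1.5.1 and GRCm38 were used. The strand setting and annotation release of the counting are not given in the sources used here, so genes that overlap others are called uncertain. Of 55487 identifiers, 55141 were matched to symbols through GENCODE release M21, and positions come from it.

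The members and the 38 gene lists (26 of biology, 12 of cell type markers) were chosen with earlier results of these data known. Genes were tested in edgeR 4.0.16 (R 4.3.3) by its quasi-likelihood F test with TMM scaling, filterByExpr and 1 mean per group over the 16 floxed hearts, with Benjamini-Hochberg adjustment over 15596 genes. Replicate numbers did not pair the hearts, and no libraries were duplicates. The labels do not say that hearts were processed apart, so the p-values measure the spread between these samples. Named genes are Cpt1a, the 12 largest rises and falls among called genes with at least 5 CPM and no overlap, the 5 smallest p, up to 6 called members per list with the largest change, and uncalled members a reader would look for. A few genes that the rule selects are not reported here. On simulated counts for this comparison (15596 genes), 60% of 2-fold and 90% of 4-fold rises, and 48% of 2-fold and 85.4% of 4-fold falls, were recovered, and 3.45% of calls were false. The simulation changed few genes and held no haemoglobin or atrial split. These shares therefore do not cover calls that such splits bring in the real data. Total counts limit low genes, and floors and counting intervals cover counting error only, since PCR copies are not independent. Promoters came from RefSeq. Alternatives were DESeq2 1.42.0, voom of limma 3.58.1 with sample weights, RLE scaling, no filter, at least 5 CPM, only the 8 hearts, all 30 hearts, a replicate block, the haemoglobin term, log2 Myl7 as a covariate, and leaving out each library. Fits without the 3 haemoglobin-low hearts of the other groups, and without the 2 compared hearts rich in Myl7, were chosen after seeing the data.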

Additional observations from a re-analysis of the deposited data

Results flagged for a closer look

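In groups of 4 hearts, the farthest heart was set apart by a gap that Dixon's test calls large for the group's range in 21 of 322 groups of the genes named above. Chance gives about 1 in 20. Of the 21, 8 were in KO_TAC 1, 8 in FF_sham 2, 2 in FF_sham 1 and 1 each in FF_sham 3, KO_TAC 2 and KO_TAC 4.

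Atrial genes were far from the others in both atrial-rich hearts: Myl7 at 3147 CPM in KO_TAC 1 and 1106 CPM in FF_sham 2, Sln (sarcolipin, an atrial regulator of the calcium pump) at 1099 CPM in KO_TAC 1 and 298 CPM in FF_sham 2, and Nppa at 2443 CPM in FF_sham 2. In KO_TAC 1 the early response gene Fosb was high at 510.3 CPM and Cilp low at 65.7 CPM, while Alas2 (1.38 CPM), Kcnv2 (3.25 CPM), Wif1 (4.93 CPM) and Bckdhb (33.1 CPM) were above the other 3 KO_TAC hearts. In FF_sham 2, Des was low at 1731 CPM and Sox18 low at 29.9 CPM, and Egr2 (1.64 CPM), Pfkfb3 (29.5 CPM) and Cxcl3 (0.0545 CPM) were above the other FF_sham hearts. FF_sham 1 was high for Casq2 at 945 CPM and mt-Atp8 at 66.5 CPM, and FF_sham 3 for Acta1 at 1190 CPM. Car4 was high in KO_TAC 2 at 9.91 CPM, and Col4a1 was high in KO_TAC 4 at 765 CPM.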

How the results depend on the processing

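The 5289 calls (2899 higher, 2390 lower) became 8641 (4407 higher, 4234 lower) with voom and 322 (167 higher, 155 lower) with the haemoglobin term. They were 5830 with DESeq2, 3982 with only the 8 hearts, 4339 of 32688 genes with no filter and 5735 without the 3 haemoglobin-low hearts of the other groups. Without 1 library, calls ran from 3751 (without KO_TAC 3) to 7036 (without KO_TAC 1), higher calls from 2104 to 3610 and lower calls from 1647 to 3426. The Cpt1a value ran from -1.87 to -1.58 without 1 library and was no longer called with the haemoglobin term (-1.56, adjusted p = 0.0907). The mitochondrial share differed by -10.4 to -8.16 percentage points without 1 library, where 3 against 4 cannot reach p under 0.0571 in the exact permutation test. With the haemoglobin term the direction reversed for Hba-a2 (3.44), Hbb-bt (3.10), Hba-a1 (3.09), Hbb-bs (2.77), Alas2 (1.63), Fosb (-0.87), Fos (-0.59), Bhlhe40 (-0.20), Egr2 (-0.03), Egr3 (-0.02) and Pcna (-0.02). None of these reversed values was called. The summed haemoglobin genes define the haemoglobin-low class, so the values of Hba-a2, Hbb-bt, Hba-a1 and Hbb-bs with the term are not an independent result. For the other reversed genes the cause was not tested. Of 159 named genes, the haemoglobin term ended the call of 83 that kept their direction, besides the 11 reversed genes, which lost their call too. The 159 include genes that were not called in the main fit and had no call to lose. No other alternative reversed a called named gene. Some genes that were not called changed sign, such as Myl7 (1.46, from -9.20 without KO_TAC 1 to 5.98 without FF_sham 2) and Sln (1.84, from -9.75 to 6.41 in the same fits). Over the 8 fits without 1 library, 109 of 1272 named results lost their call. The 1272 also count the genes that were not called in the main fit and had no call to lose.

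Replicate numbers are shared by the groups, but same-numbered hearts deviated together with correlations of only -0.39, -0.23, 0.11 and 0.19, and 1 of the 4 numbers was best matched by itself. With the numbers as a replicate block, 5100 genes were called (2687 higher, 2413 lower), Cpt1a was -1.71 (adjusted p = 0.00395), and the calls of Col3a1 (0.81), Lyz2 (0.66) and Wif1 (-1.91) were lost. Depth limits genes near 0 CPM in FF_sham, and the folds of Il6 and Csf2 are bounds. The fitted values of Acod1, Ccl3, Ccl4, Il1a, Cxcl2 and Fosl1 rest on 4 to 9 counts over the FF_sham libraries.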
